A study of Mus musculus with 6 samples.

Results

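Eph receptors were followed in mouse fibrosarcoma cells of the C57BL/6 strain that carry Rras2(Q72L), a mutant form of a RAS-related GTPase. They are the largest family of receptor tyrosine kinases. The receptors were taken as a list of 10 gene symbols, 1 probe set each, of 19505 genes on the array. Of these, 9 were measured: Epha2, Epha3, Epha4, Epha5, Epha7, Ephb1, Ephb3, Ephb4 and Ephb6. The tenth, Ephb2, was not analysed here because the probe annotation used gave it no probe set. The members were selected on their levels and on their difference in the contrast described below. Their differences and calls are therefore given as a description, without p-values.

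The cells had been transduced either with an shRNA vector directed at Rras2 (shRras2, replicates 4 to 6) or with the pLKO vector (pLKO, replicates 1 to 3). Both groups carry the Rras2(Q72L) form and were grown in DMEM with fetal bovine serum. There were 3 arrays per group, 1 per sample, and 1 shRNA, so an effect of that shRNA on other transcripts cannot be told apart from the loss of Rras2. Separate cultures are not mentioned in the labels, so errors and p-values cover the spread among these 6 samples alone and that spread may be technical. Replicate numbers do not cross the groups, so a batch that followed them and the group cannot be told apart.

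Eph receptors sit in the plasma membrane and bind ephrins on the surface of neighbouring cells. EphA receptors mainly bind the ephrin-A ligands, which are held in the membrane by a lipid anchor, and EphB receptors mainly bind the ephrin-B ligands, which span it. Contact can signal into both cells, and it is known for repulsion, boundary formation and the guidance of axons, vessels and migrating muscle precursors. The signal passes through adaptors and exchange factors to the cytoskeleton, and in many cell types it meets the RAS-ERK pathway.

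The targeted gene checked the labels. Rras2 had log2 RMA signals of 9.09, 9.69 and 9.21 on shRras2 replicates 4, 5 and 6, against 10.67, 10.75 and 10.82 on pLKO replicates 1, 2 and 3. On the linear scale 31.8%, 48.1% and 34.6% of the mean pLKO signal remained on shRras2 replicates 4, 5 and 6, so replicate 5 kept the most. Rras2 thus fell by 1.41 on the log2 scale (SE 0.14; adjusted p = 0.00163 in limma), and an exact two-sided permutation test gave p = 0.1, the smallest that 3 arrays against 3 allow. Signals are on a log2 scale, where a difference of 1 is a doubling, and every difference is shRras2 minus pLKO. The 5222 probe sets named as negative controls had a 95th percentile of 7.92, and a signal below it is called dim here. Changes of dim genes can be understated, and levels of different genes were not compared because their probes differ.

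Of the fibroblast markers 6 of 11 measured were above that percentile on average, against 8131 of all 19505 genes. The rest of the 11 were dim, and nothing is read from that count. Vim, an intermediate filament gene of mesenchymal cells, averaged 13.79 ± 0.05 on shRras2 arrays and 13.84 ± 0.03 on pLKO arrays (SD, n = 3 each). Fn1, the fibronectin gene, averaged 13.43 ± 0.02 on shRras2 arrays and 13.21 ± 0.04 on pLKO arrays (SD, n = 3 each). Defining markers of endothelium, leukocytes and epithelium were dim in both groups. The endothelial genes Pecam1 and Cdh5 averaged 5.93 and 4.42 on shRras2 arrays and 5.81 and 4.32 on pLKO arrays, and 1 of 9 endothelial (Esam), 0 of 6 leukocyte and 0 of 8 epithelial markers exceeded the percentile. Most skeletal muscle markers were higher on shRras2 arrays: 8 of 12 passed limma's threshold upward and 0 downward, where 5.21% of all genes passed in either direction. The difference was positive for 11 of the 12. Myf6, named here after its value was seen, had a log2 difference of -0.38 (limma adjusted p = 0.0601), and its groups did not overlap. The mean signal of the 12 was 7.70 to 8.29 on shRras2 arrays, against 6.36 to 6.50 on pLKO arrays. Averaged over the 6 arrays, 4 of the 12 were above the percentile. Of the Schwann cell and neural markers 1 of 6 passed, Tubb3, a neuronal tubulin gene, with a rise of 1.08. It was also the only 1 of the 6 above the percentile. Of the 11 fibroblast markers 3 passed, all upward, and they are named here after their values were seen. Col3a1, a fibrillar collagen gene, rose by 0.69, the proteoglycan gene Dcn, dim on all 6 arrays, by 0.76 and Pdgfrb by 0.37. The mean signal of the 11 was 9.06 to 9.26 on shRras2 arrays and 8.94 to 9.01 on pLKO arrays. The part of muscle, neural or fibroblast gene expression in the Eph receptor values was not tested.

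Of the 9 measured Eph receptors, 7 had a higher mean on shRras2 arrays and 2 a lower one. The 7 were Epha3, Epha4, Epha5, Epha7, Ephb3, Ephb4 and Ephb6, and for each of them all 3 shRras2 arrays lay above all 3 pLKO arrays. Epha2 and Ephb1 had lower means, with overlapping groups. Both classes were represented, with 4 of 5 EphA and 3 of 4 EphB members higher. The members' median log2 difference was 0.45, against -0.01 over all 19505 genes and 0.01 for the 4 Eph receptors outside the list. As the members were chosen with this difference known, nothing is read from that gap.

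Those counts stand beside the following shares of all genes. Groups did not overlap for 25.5% of genes, with 11.6% above and 13.9% below in the shRras2 cells. In limma, 5.21% of genes passed an adjusted p of 0.05, 2.99% higher and 2.22% lower. After centring of the arrays on their medians, the calls over all genes were 506 higher and 567 lower, against 584 higher and 433 lower without centring. Among the members 5 of 9 were past that threshold, Epha3, Epha4, Epha7, Ephb3 and Ephb6, all higher. Because the members were chosen with this difference known, nothing is read from their counts or from which calls held in the settings that follow. The number past the threshold was 3, namely Epha3, Epha4 and Epha7, without shRras2 replicate 4 or 6 or without pLKO replicate 1 or 3. Ephb3 was also lost, leaving 4, after a second quantile normalization and without pLKO replicate 2, and Ephb4 was added with trend and robust settings, giving 6.

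**Figure D1:**
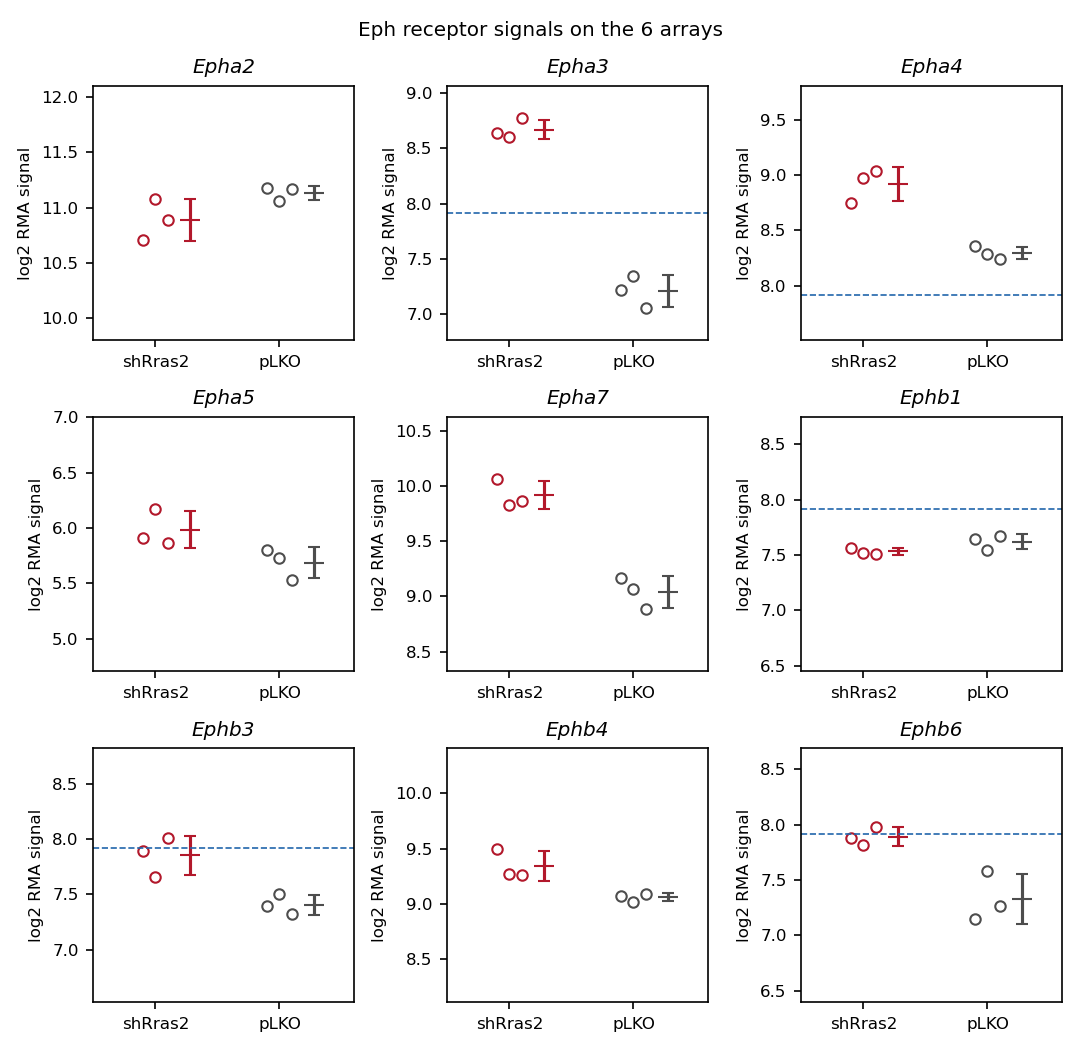
Log2 RMA signal of each of the 9 measured Eph receptors (y axis; every panel spans the same range, around its own middle) on the 3 shRras2 arrays (red) and the 3 pLKO arrays (grey). Open circles are arrays in replicate order, the marks beside them are mean ± SD, and the dashed blue line, where it falls in a panel, is the 95th percentile of the negative controls (7.92). Groups are separate for 7 receptors and overlap for Epha2 and Ephb1.

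Epha3 differed most. It encodes an EphA receptor that binds ephrin-A ligands with high affinity, ephrin-A5 among them. Its signal was 8.64, 8.60 and 8.77 on shRras2 replicates 4, 5 and 6, against 7.22, 7.34 and 7.06 on pLKO replicates 1, 2 and 3. The groups were 1.26 apart at their nearest arrays, while arrays of a group spanned 0.17 for shRras2 and 0.29 for pLKO. On the log2 scale the difference was 1.46 ± 0.10 (SE), a 2.75-fold higher signal in the shRras2 cells. All 3 shRras2 arrays were above the negative-control percentile of their own array and all 3 pLKO arrays were below it, so the fold may be understated.

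Epha7 had the next largest difference. It encodes a receptor for ephrin-A ligands that is best known from the developing nervous system. Its signal was 10.06, 9.82 and 9.86 on shRras2 replicates 4, 5 and 6, against 9.17, 9.07 and 8.89 on pLKO replicates 1, 2 and 3. The nearest arrays of the groups were 0.65 apart, and all 6 arrays were above the negative-control percentile. Its log2 difference was 0.87 ± 0.10 (SE), or 1.83-fold.

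Epha4 encodes the member of the A class that also binds ephrin-B ligands. Its signal was 8.75, 8.97 and 9.04 on shRras2 replicates 4, 5 and 6, against 8.36, 8.29 and 8.24 on pLKO replicates 1, 2 and 3. The groups were 0.39 apart, more than the spread within either, and no array was dim. The log2 difference was 0.62 ± 0.09 (SE), or 1.54-fold.

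Epha5, a receptor of neural tissue that binds ephrin-A ligands, was dim on every array. Its signal was 5.91, 6.18 and 5.87 on shRras2 replicates 4, 5 and 6, against 5.80, 5.73 and 5.53 on pLKO replicates 1, 2 and 3. The groups were only 0.07 apart, less than the range within either, and the log2 difference was 0.30 ± 0.11 (SE). Its mean exceeded 69.3% of the negative-control values, so these signals are close to background.

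Epha2 was the one member of the A class with a lower mean. It encodes a receptor for ephrin-A ligands that is present in epithelia and many tumors and is known as a gene that RAS-ERK signalling can raise. Its signal was 10.70, 11.08 and 10.88 on shRras2 replicates 4, 5 and 6, against 11.17, 11.06 and 11.17 on pLKO replicates 1, 2 and 3. Replicate 5 of the shRras2 group lay above pLKO replicate 2, so the groups overlapped, and the log2 difference was -0.25 ± 0.10 (SE).

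The upstream windows of the 3 A-class genes at the ends of this range are shown to set the receptors with the largest differences beside the one with a lower mean. They are the 250 bases before the annotated start, from RefSeq on GRCm38.p6, on the strand of the gene. Epha3 lies at chr16:63864176-63864425 (minus strand), Epha7 at chr4:28812881-28813130 (plus strand, the first of its 2 annotated starts) and Epha2 at chr4:141300971-141301220 (plus strand). Capitals mark GGAATG, or CATTCC on the other strand, the core to which TEAD factors bind.
Epha3: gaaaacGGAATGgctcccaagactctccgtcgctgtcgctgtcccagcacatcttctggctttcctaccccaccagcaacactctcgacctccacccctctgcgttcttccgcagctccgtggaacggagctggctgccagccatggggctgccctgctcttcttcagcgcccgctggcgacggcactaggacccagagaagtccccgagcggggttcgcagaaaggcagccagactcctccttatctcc
Epha7: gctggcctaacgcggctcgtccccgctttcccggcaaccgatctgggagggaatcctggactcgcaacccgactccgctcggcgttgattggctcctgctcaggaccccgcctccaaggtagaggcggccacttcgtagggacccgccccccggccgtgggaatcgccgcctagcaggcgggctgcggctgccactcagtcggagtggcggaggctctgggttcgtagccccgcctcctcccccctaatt
Epha2: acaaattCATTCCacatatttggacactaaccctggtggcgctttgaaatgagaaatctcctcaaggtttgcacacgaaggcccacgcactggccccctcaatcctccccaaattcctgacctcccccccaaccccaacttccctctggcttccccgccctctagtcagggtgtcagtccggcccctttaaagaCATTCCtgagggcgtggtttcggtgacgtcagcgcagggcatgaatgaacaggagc

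In these windows GGAATG occurred 1 time for Epha3, 0 times for Epha7 and 2 times for Epha2, and 62.8%, 69.2% and 55.6% of their bases were G or C. All 10 listed receptors, Ephb2 included, had a window in the table, 11 windows in all. Both strands were searched for 4 motifs, none of which overlapped another in the printed windows. GGAATG was in 2 of the 11 windows, against 12.6% of 32851 windows of all genes. CAGCTG, an E-box form that myogenic factors bind, was in 1 of the 11 (Ephb3), against 13.0% of all. CCGGAA, the core to which ETS factors bind, was in 2 of the 11 (Ephb2 and Ephb6), against 12.0%, and TGANTCA, the AP-1 site, was in 0, against 6.75%.

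Ephb6 had the largest difference of the B class. Its product is a receptor without kinase activity that acts through its partner receptors. Its signal was 7.88, 7.81 and 7.98 on shRras2 replicates 4, 5 and 6, against 7.14, 7.58 and 7.26 on pLKO replicates 1, 2 and 3. The groups were 0.23 apart, less than the range of 0.44 among the pLKO arrays, where replicate 2 was the highest. The log2 difference was 0.56 ± 0.12 (SE), or 1.48-fold, and only shRras2 replicate 6 was above the negative-control percentile of its array.

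Ephb3, a receptor for ephrin-B ligands known for ordering cells in the intestinal crypt and for axon guidance, had signals of 7.89, 7.66 and 8.01 on shRras2 replicates 4, 5 and 6, against 7.40, 7.50 and 7.32 on pLKO replicates 1, 2 and 3. The groups were 0.16 apart, with shRras2 replicate 5 the nearest to the pLKO arrays. Its log2 difference was 0.45 ± 0.11 (SE), and only shRras2 replicate 6 was above the negative-control percentile of its array.

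Ephb4 encodes the receptor that marks veins and binds ephrin-B2. Its signal was 9.50, 9.27 and 9.26 on shRras2 replicates 4, 5 and 6, against 9.07, 9.02 and 9.09 on pLKO replicates 1, 2 and 3. The groups were 0.17 apart, and replicate 4 stood above the other shRras2 arrays. The log2 difference was 0.28 ± 0.09 (SE), or 1.22-fold, and no array was dim.

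Ephb1, a receptor for ephrin-B ligands in axon guidance and angiogenesis, was dim on every array. Its signal was 7.57, 7.52 and 7.51 on shRras2 replicates 4, 5 and 6, against 7.65, 7.54 and 7.67 on pLKO replicates 1, 2 and 3. The groups overlapped, and the log2 difference was -0.09 ± 0.08 (SE; 95% interval -0.26 to 0.09).

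The 3 shRras2 arrays were then set apart, because they kept different amounts of Rras2. Replicate 5, with the most Rras2 left, was nearest the pLKO mean for 5 of the 9 receptors (Epha2, Epha3, Epha7, Ephb3 and Ephb6) and farthest from it for 1, Epha5. It was also the nearest over all genes, on the first principal component, the main axis of difference among the arrays. There it stood at -8.30, against -22.73 and -18.96 on replicates 4 and 6 and 12.95 to 21.07 on pLKO arrays. The count of 5 is therefore not read as a trait of the receptors. For Epha2 the deviation from the pLKO mean was -0.43, -0.06 and -0.25 on replicates 4, 5 and 6. For Epha4 it was 0.45, 0.67 and 0.74, so that replicate 4, with the least Rras2 left, was the nearest to the controls. Over the 9 receptors the median deviation was 0.45, 0.49 and 0.60 on replicates 4, 5 and 6, against 1.65, 1.00 and 1.63 for the 12 skeletal muscle markers on the same arrays. By these medians replicate 5 was lowest in the muscle markers and in the middle for the receptors. The receptors' mean deviations were 0.457, 0.458 and 0.489 on replicates 4, 5 and 6, so replicates 4 and 5 hardly differed. With 3 arrays no relation to the remaining Rras2 was tested.

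**Figure D2:**
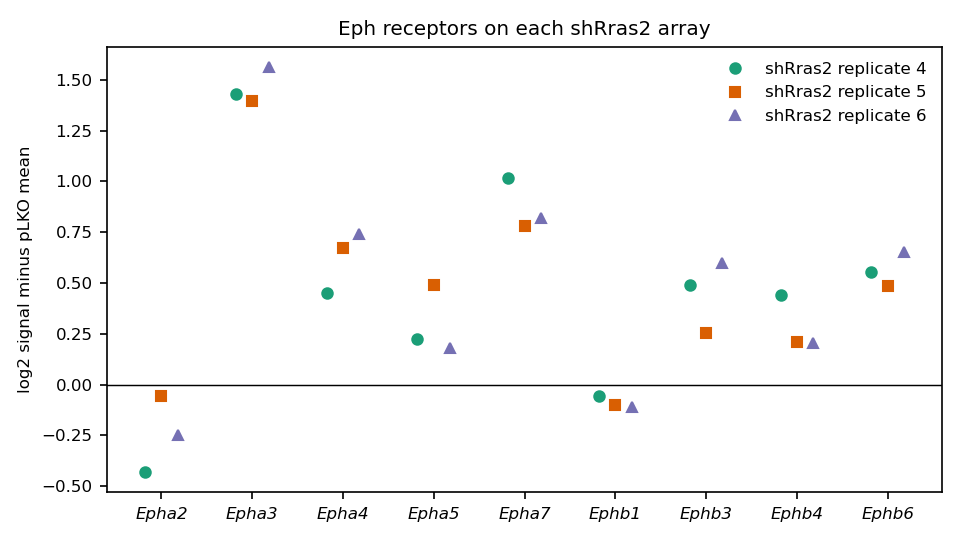
Log2 signal of each Eph receptor on the 3 shRras2 arrays minus the mean of the 3 pLKO arrays (y axis), with 1 symbol per shRras2 replicate. Epha3 lies at 1.39 to 1.56 on all 3 arrays, while the order of the replicates changes from gene to gene.

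The remaining Eph receptors of the mouse, which the list did not hold, showed no call. Of Epha1, Epha6, Epha8 and Epha10, 0 of 4 passed limma's threshold, against 5.21% of all genes. An unadjusted p under 0.05 was found for 0, against 19.1% of all genes. The list that left these 4 out was chosen with this contrast known, so nothing is read from their lack of calls. Epha1, the first receptor of the family to be described, averaged 8.45 ± 0.09 on shRras2 arrays and 8.33 ± 0.12 on pLKO arrays (SD, n = 3 each), with a log2 difference of 0.12 (95% interval -0.09 to 0.33). Epha6 and Epha8, receptors of neural tissue, were dim on all 6 arrays, with means of 4.55 and 4.95 on shRras2 arrays and 4.54 and 4.99 on pLKO arrays. Epha10, which like Ephb6 lacks kinase activity, averaged 7.83 ± 0.10 on shRras2 arrays and 7.82 ± 0.10 on pLKO arrays (SD, n = 3 each). Both means were dim, and 1 of 6 arrays was above the negative-control percentile of its own array. Over all 13 measured Eph receptors, 9 of them chosen on this contrast, the median log2 difference was 0.28. Past the threshold were 5, the same 5 named above, all from the chosen list.

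The ligands were measured in the same fit. Of the 8 ephrins 0 passed limma's threshold and 2 had an unadjusted p under 0.05, 25.0% against 19.1% of all genes, and the median log2 difference was 0.05. Groups did not overlap for 4 of the 8, against 25.5% of all genes: 3 were higher (Efna3, Efna4 and Efnb3) and Efnb1 was lower. Efna3, an ephrin-A ligand, had signals of 8.56, 8.50 and 8.46 on shRras2 replicates 4, 5 and 6, against 8.03, 8.23 and 8.28 on pLKO replicates 1, 2 and 3. Its groups did not overlap, with a log2 difference of 0.33 ± 0.09 (SE) and a limma adjusted p of 0.0777. It passed when the dimmest genes were left out (limma adjusted p = 0.0461) and with trend and robust settings (limma adjusted p = 0.0371).

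Efnb1, a membrane-spanning ligand of EphB receptors, had signals of 9.16, 9.16 and 9.17 on shRras2 replicates 4, 5 and 6, against 9.36, 9.29 and 9.44 on pLKO replicates 1, 2 and 3. The groups were separate, with a log2 difference of -0.20 ± 0.08 (SE; limma adjusted p = 0.186). Efnb2, the ephrin-B ligand of arteries and the partner of Ephb4, averaged 11.27 ± 0.14 on shRras2 arrays and 11.29 ± 0.08 on pLKO arrays (SD, n = 3 each; 95% interval of the difference -0.23 to 0.20). Efna5, a ligand of Epha3 and other EphA receptors, had a log2 difference of -0.13 ± 0.14 (SE; limma adjusted p = 0.7), with shRras2 replicate 4 at 8.80 and the other 5 arrays between 9.26 and 9.41.

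Efna1, Efna2 and Efnb3 were dim on all 6 arrays, with log2 differences of 0.12, -0.03 and 0.15. Efna4 averaged 8.55 ± 0.09 on shRras2 arrays and 8.36 ± 0.14 on pLKO arrays (SD, n = 3 each; limma adjusted p = 0.33). The difference between receptors and ligands was not tested, since the receptors had been chosen on this contrast.

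**Figure D3:**
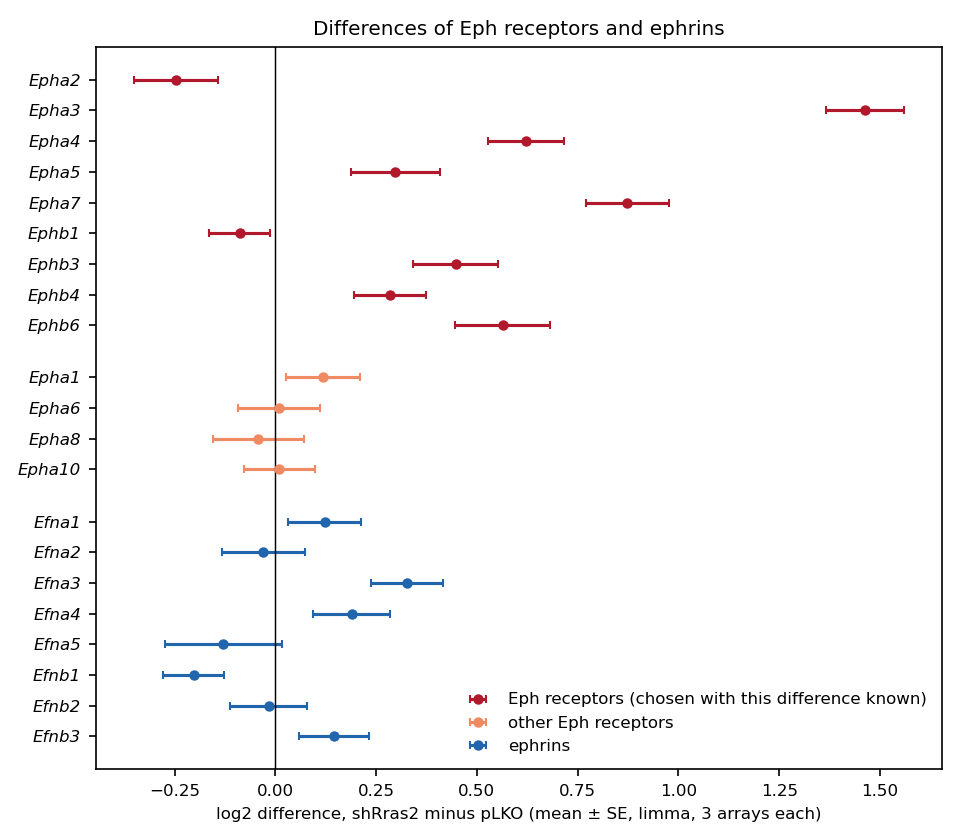
Log2 difference, shRras2 minus pLKO, of the 9 measured Eph receptors of the list (red), the 4 other Eph receptors (orange) and the 8 ephrins (blue). Points are differences of means over 3 arrays per group and bars are limma SEs. The listed receptors, chosen with this difference known, run from -0.25 to 1.46, and the ephrins from -0.20 to 0.33.

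Genes for proteins that carry Eph signals inside the cell came next. Of 44 measured effectors and adaptors 1 passed limma's threshold, 2.27% against 5.21% of all genes, and 9 had an unadjusted p under 0.05, 20.5% against 19.1%. The 1 call was Afdn, which encodes afadin, a junction protein whose PDZ domain can bind the tail of Eph receptors. Afdn averaged 8.68 on shRras2 arrays and 8.32 on pLKO arrays, a rise of 0.36 ± 0.09 (SE; limma adjusted p = 0.0479). When single arrays were left out it was past the threshold in 0 of 6 fits, with limma adjusted p-values of up to 0.158, and it also missed after a second quantile normalization (0.0507) and after median centring (0.0803). The median of the effectors was 0.01, and 22 of 44 had a positive difference.

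Receptor tyrosine kinases of other families were described as well. No comparison with the Eph receptors is drawn, since those had been chosen on this contrast. Of 38 measured genes 2 rose and 1 fell, 7.89% against 5.21% of all genes, and their median log2 difference was -0.02. An unadjusted p under 0.05 in limma was found for 15, 39.5% against 19.1% of all genes. Groups did not overlap for 16 of the 38, with 7 of them higher, against 25.5% of all genes. Ptk7, a kinase-inactive receptor of planar cell polarity, rose by 0.53 ± 0.09 (SE; limma adjusted p = 0.0133), with 9.72 on shRras2 arrays and 9.20 on pLKO arrays. Pdgfrb, a receptor for platelet-derived growth factor, rose by 0.37 ± 0.09 (SE; limma adjusted p = 0.0486). Tyro3, a relative of Axl and a dim gene, fell by 0.40, with a mean of 7.37 on shRras2 arrays and 7.77 on pLKO arrays (limma adjusted p = 0.0406). Without 1 array, Ptk7 passed in 3, Pdgfrb in 1 and Tyro3 in 0 of the 6 fits, with limma adjusted p up to 0.0555, 0.166 and 0.145. The lost fits for Ptk7 were those without shRras2 replicate 4, pLKO replicate 1 or pLKO replicate 2, and Pdgfrb passed only without shRras2 replicate 5. After median centring Pdgfrb missed as well (limma adjusted p = 0.0599).

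The pattern of Epha3 over the 6 arrays was set beside that of 7974 other named genes above the negative-control percentile. Likeness was the root mean square distance between the deviations of each gene from its own mean. The nearest were Pik3ip1, which encodes an inhibitor of PI3K, at 0.05, Mmp19, a matrix metalloproteinase gene, at 0.08, and Afap1l2, an adaptor gene of SRC signalling, at 0.11. Their log2 differences were 1.51, 1.45 and 1.45, against 1.46 for Epha3. Likeness of these differences follows from how the genes were picked, so nothing is read from it, and shared regulation was not tested.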

How the data were processed

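RNA from 6 samples was hybridised to 1 Affymetrix array each. Per the submitters' processing notes, the authors ran RMA with R 3.6.3, and the table they deposited holds the resulting log2 signals. RMA subtracts background, forces the arrays to 1 distribution and combines the probes of a set, so a level is relative to the other arrays. Further steps: not given in the sources used here.

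Of 29129 probe sets, 19572 had 1 gene symbol in the platform annotation and the rest none here. The brightest probe set was kept for 55 genes with several. The 19505 genes were compared, shRras2 minus pLKO, with limma 3.58.1 in R 4.3.3 (lmFit, eBayes, two-sided, no covariates, Benjamini-Hochberg over all genes, threshold 0.05 on the adjusted p). The number of arrays limits the precision (median SE 0.096).

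The members and lists were chosen with earlier results of these data known. Of the 161 different genes on the lists, 151 were measured. Named genes are all Eph receptors and ephrins, Rras2, up to 6 called members per other list and direction, up to 2 defining markers per marker list, and the 3 genes nearest to the member with the largest difference. Lists were described by counts and medians, and the results of 1 planned list are not reported here. On simulated data for this comparison with 200 of 19505 genes changed, limma found 21 of 67 genes with a log2 change of 0.5, 62 of 67 with 1 and 66 of 66 with 2, besides 8 false calls among 19305. The simulated noise was independent for each gene and array, with nothing shared by an array or batch. The false calls are therefore not an error rate of the real comparison. The alternatives were a second quantile normalization, median centring, leaving out the dimmest 30% of genes, the mean of probe sets, trend and robust settings, array weights, and leaving out each array.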

Additional observations from a re-analysis of the deposited data

How the results depend on the processing

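The sign of the log2 difference of all 9 measured Eph receptors was the same in all 12 alternatives, and each moved by less than the larger group SD. Much of that was fixed beforehand. Trend and robust settings, leaving out the dimmest genes and the mean of probe sets (1 per member) cannot change a member's difference. Leaving out 1 array cannot move it by a full group SD. Leaving out or weighting arrays cannot turn the sign where groups do not overlap, as for 7 members. For those 7 only the second quantile normalization and median centring could. Epha3 ranged from 1.39 to 1.53, Epha7 from 0.80 to 0.94, Epha4 from 0.56 to 0.71 and Epha2 from -0.34 to -0.15. Rras2 passed in all 6 fits without 1 array (-1.59 to -1.29). Over all genes, 1017 passed, but 1908 did with trend and robust settings (965 higher and 943 lower). Without 1 array the count was 392, 1136 and 431 (shRras2 replicates 4, 5 and 6) and 463, 589 and 427 (pLKO replicates 1, 2 and 3). With trend and robust settings 1 ephrin, 6 effectors and 6 other receptor tyrosine kinases passed. Without the dimmest 30% of genes 1 ephrin (Efna3) passed. With a second quantile normalization, and with median centring, 0 effectors passed. Without 1 array, 0 to 1 effectors and 0 to 4 other receptor tyrosine kinases passed. The signs of Efna2 (-0.14 to 0.030), Efna5 (-0.25 to 0.054) and Efnb2 (-0.10 to 0.031), which never passed, changed among the fits without 1 array. Fits without 1 array have fewer samples, and for the other settings the cause was not tested. No paired analysis was possible because the groups share no replicate number. Dim signals limit Epha5 and Ephb1 on all arrays, and Ephb3, Ephb6 and Epha3 on some.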

Other observations

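The nearest measured protein-coding genes on either side of the 3 receptors with the largest differences, by annotated order, were looked up after their receptors' values were seen, and lie outside the naming rule. Beside Epha3, Pros1, which encodes the anticoagulant protein S, rose by 0.55 ± 0.09 (SE; limma adjusted p = 0.0104), with 9.32 on shRras2 arrays and 8.77 on pLKO arrays. Its other neighbour Csnka2ip was dim on all 6 arrays, with a log2 difference of -0.05. The neighbours of Epha7, Manea and Map3k7, had log2 differences of -0.17 and -0.01 (limma adjusted p = 0.379 and 0.967). Those of Epha4 were Pax3, a myogenic and neural crest factor gene with a difference of 0.06, and Slc4a3, dim on all 6 arrays, with 0.04 (limma adjusted p = 0.728 and 0.893).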
